A study of Mus musculus with 20 samples.

Results

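The glucocorticoid-responsive genes described here are 10 genes that glucocorticoid hormones are known to induce: Glul, Nfkbia, Errfi1, Fkbp5, Tsc22d3, Per1, Klf9, Sgk1, Zbtb16 and Dusp1. They were measured as transcript clusters, the summed probes of a gene on the array, and were found as clusters annotated with exactly 1 gene symbol, of which the array has 21640 among 34760 clusters. Each gene was represented by its cluster with the highest mean signal over all arrays, and both clusters of Glul were kept, which gives 11 clusters. The genes were chosen with the doxorubicin differences of these same arrays already known, so the doxorubicin differences of the members are given as a description. For the main fit, described below, a count of members past a threshold is printed beside the share of all clusters past it. In other fits the count stands alone or beside the number of clusters called, and nothing is read from any of these counts.

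RNA of the left ventricle from 20 mice was hybridized to Affymetrix Mouse Gene 1.0 ST arrays, with 1 array per mouse. All were male C57BL/6 mice, 2 months old by the sample labels, and came from 4 groups. The sham group (4 mice) was sham treated and ate a placebo diet, and the FA-sham group (4 mice) was sham treated and ate folic acid (FA), 10 mg daily, starting 7 days ahead of the injection. The DOXO group (6 mice) received doxorubicin, an anthracycline used against tumours that injures heart muscle, as a single intraperitoneal dose of 20 mg/kg with placebo, and the FA-DOXO group (6 mice) received both. Hearts were taken at day 10, so the doxorubicin groups hold only mice that were alive then.

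Glucocorticoids, corticosterone in mice, enter cells and bind the glucocorticoid receptor, which is held by chaperones of the Hsp90 machinery until the hormone arrives. The receptor then moves to the nucleus and binds DNA at glucocorticoid response elements, paired copies of a short half-site, and its induced targets include feedback inhibitors of the receptor, of NF-kappaB, of growth factor signalling and of stress kinases, together with regulators of metabolism and of the circadian clock. In heart muscle the same receptor acts in cardiomyocytes as well as in vessel, stromal and immune cells. Several of these genes also answer to other signals: Nfkbia to NF-kappaB, Dusp1 and Errfi1 to mitogens and stress, Per1 to the clock and Sgk1 to the mineralocorticoid receptor.

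The stretches before the start sites of these genes are shown because they carry the letters through which such signals are known to act. Promoters (the 250 bases before an annotated start, from RefSeq on GRCm38.p6) were found for 9 of the 10 genes, with 18 start sites in all, and Zbtb16 had no entry. The half-site TGTTCT, read on both strands, lay in 16.1% of 32851 promoters. The spaced pair AGAACA, 3 bases and TGTTCT lay in 3 of them (0.00913%). Among the members the pair occurred in 1 promoter, that of the fifth annotated start of Sgk1 (chr10:21993640-21993889, plus strand), 189 to 175 bases before the start. One more TGTTCT, further upstream, overlaps an E-box, CACGTG. The promoter of Nfkbia (chr12:55492648-55492897, minus strand) held 2 matches to the NF-kappaB motif GGANTTTCC, which lay in 1.07% of promoters. The second start of Errfi1 (chr4:150854820-150855069, plus strand) held the cyclic AMP response element TGACGTCA (1.55% of promoters) and a TATAAA box (12.4%), and the promoter of Dusp1 (chr17:26508473-26508722, minus strand) held TGACGTCA and CACGTG (6.02%). CACGTG also lay in the promoter of Fkbp5 and at the first start of Per1, and none of these motifs lay in those of Glul and Klf9. The half-site, on either strand, also lay at start 2 of Tsc22d3 and at starts 1 and 4 of Sgk1. TATAAA lay at starts 4 and 6 of Sgk1 too. A match describes letters only, and where no match lies in these windows nothing follows about the factor. The sequences run 5′ to 3′ on the strand of the gene, with the matches in capitals.
Sgk1, start 5: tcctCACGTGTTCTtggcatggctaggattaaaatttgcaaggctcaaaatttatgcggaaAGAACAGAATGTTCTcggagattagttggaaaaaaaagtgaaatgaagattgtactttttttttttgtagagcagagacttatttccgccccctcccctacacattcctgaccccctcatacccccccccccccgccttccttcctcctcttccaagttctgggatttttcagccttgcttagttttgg
Nfkbia: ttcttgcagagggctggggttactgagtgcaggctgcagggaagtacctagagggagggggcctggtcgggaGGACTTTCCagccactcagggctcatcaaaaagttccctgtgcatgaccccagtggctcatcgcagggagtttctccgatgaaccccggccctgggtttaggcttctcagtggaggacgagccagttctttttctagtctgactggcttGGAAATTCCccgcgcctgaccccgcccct
Errfi1, start 2: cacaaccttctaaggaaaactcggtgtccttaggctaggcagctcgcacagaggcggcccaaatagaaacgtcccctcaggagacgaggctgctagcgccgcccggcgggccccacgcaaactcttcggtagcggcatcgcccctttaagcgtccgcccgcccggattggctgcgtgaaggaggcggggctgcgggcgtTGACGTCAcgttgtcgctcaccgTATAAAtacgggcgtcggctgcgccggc
Dusp1: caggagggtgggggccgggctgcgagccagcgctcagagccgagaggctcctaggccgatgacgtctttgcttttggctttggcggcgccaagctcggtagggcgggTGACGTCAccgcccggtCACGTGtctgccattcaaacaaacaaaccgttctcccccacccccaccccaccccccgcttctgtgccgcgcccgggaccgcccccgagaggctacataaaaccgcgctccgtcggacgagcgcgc

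The arrays differed in how widely their signals spread, and this touches every value below. The SD of all log2 signals of an array (array SD) ran from 0.86 to 1.50. Arrays above an SD of 1.1 are called wide and the others narrow. Wide were 3 of 4 sham, 1 of 4 FA-sham, 2 of 6 DOXO and 2 of 6 FA-DOXO arrays. The SDs of the wide arrays ran from 1.14 to 1.50, so groups compared within them still differ in array SD. The cardiomyocyte markers that define the tissue were lower on narrow arrays. The mean signal over 9 of them (among them Myh6, Actc1 and Tnnt2) ran from 8.07 to 10.67 on the narrow and from 11.27 to 12.94 on the wide arrays. It was above the array medians of 6.23 to 6.66 on all 20. Fibroblast markers were lower on narrow arrays too, at 7.02 to 7.72 against 7.91 to 8.33. Gene lists with low signals went the other way. T and NK cell markers ran from 6.34 to 6.60 on the narrow and from 5.62 to 6.30 on the wide arrays. Targets of glucocorticoids in liver ran from 6.14 to 6.43 and from 5.53 to 6.07. The signals of the members rose with the array SD by between 1.38 (Fkbp5) and 7.66 (Glul) log2 units per unit of SD in a fit of 1 mean per group with the array SD as a covariate (limma, over all 20 arrays), and that fit gives the differences below. What made the arrays differ was not tested. In a piece of ventricle, fewer cells of a type and less RNA per cell cannot be told apart. All signals are log2 values of a summed probe set, and levels of different genes are not compared.

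Glul encodes glutamine synthetase, which joins ammonia to glutamate and rises in muscle under glucocorticoids. Its signal in the sham mice was 7.85, 10.43, 10.17 and 6.74 (replicates 1 to 4), and in the FA-sham mice 7.08, 7.08, 6.82 and 9.35. In the DOXO mice it ran from 7.07 to 12.07 with a median of 8.63, and in the FA-DOXO mice from 7.12 to 10.88 with a median of 8.05. The 4 highest signals came from wide arrays, 2 DOXO, 1 FA-DOXO and 1 sham, and the groups overlapped. At the same array SD the DOXO mice were higher than the sham mice: the difference in the covariate fit was 1.44 ± 0.21 (SE), a 2.71-fold higher signal. The second cluster annotated to Glul, whose probe positions were not checked, gave 1.30 ± 0.18, so both clusters moved alike in this comparison. Without the covariate the differences were 0.38 ± 1.02 and 0.28 ± 0.98, far inside their errors.

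Sgk1, a kinase that controls ion channels and cell survival and is a direct target of both corticosteroid receptors, was at 6.53, 7.89, 7.56 and 6.48 in the sham and 6.68, 6.64, 6.49 and 7.17 in the FA-sham mice. DOXO signals ran from 6.60 to 9.57 (median 6.97) and FA-DOXO signals from 6.65 to 8.28 (median 6.80). The 2 wide DOXO arrays, at 8.69 and 9.57, and 1 wide FA-DOXO array stood above every other mouse, while the narrow DOXO arrays lay among the shams. The covariate fit put DOXO above sham by 0.97 ± 0.19, against 0.46 ± 0.51 without the covariate.

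Fkbp5 encodes an immunophilin of the receptor complex that lowers the receptor's affinity for hormone, a short feedback loop. Its sham signals were 6.53, 6.86, 6.60 and 6.97 and its FA-sham signals 6.89, 6.77, 7.01 and 6.89. In the DOXO mice the range was 6.92 to 8.73 around a median of 6.95, and in the FA-DOXO mice 6.92 to 7.63 around 7.05. Fkbp5 differed from the other members in that the 3 wide sham arrays lay below the narrow one, and its signals of more than 7.5 all came from doxorubicin-treated mice: DOXO replicate 5 at 8.73, DOXO replicate 1 at 7.88 and FA-DOXO replicate 5 at 7.63. The remaining DOXO signals, between 6.92 and 6.96, lay just under sham replicate 4. The difference of DOXO from sham was 0.84 ± 0.22 with the covariate and 0.65 ± 0.28 without it. This was the smallest move between both fits among the members that exceeded 0.8. Other settings moved it more. It was 0.41 with quantile normalization and no covariate, -0.03 within narrow and 1.64 within wide arrays, and 0.27 without both wide DOXO arrays.

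Nfkbia encodes the inhibitor that holds NF-kappaB in the cytoplasm. Its signals were 7.21, 8.01, 7.94 and 6.95 in the sham and 7.22, 6.93, 7.04 and 7.67 in the FA-sham mice. The DOXO mice spanned 7.05 to 9.50 (median 7.50) and the FA-DOXO mice 6.91 to 8.49 (median 7.33). DOXO replicates 5 and 1, at 9.50 and 8.91, were the 2 highest of the 20 mice, and the groups overlapped below them. DOXO exceeded sham by 0.84 ± 0.14 in the covariate fit, a 1.80-fold higher signal, and by 0.41 ± 0.44 without the covariate.

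Errfi1 encodes a feedback inhibitor of the EGF receptor family. It was at 7.27, 8.66, 8.12 and 7.01 in the sham and at 7.05, 7.32, 7.06 and 7.64 in the FA-sham mice. Signals in the DOXO mice ran from 7.15 to 10.03 (median 7.54) and in the FA-DOXO mice from 6.96 to 8.61 (median 7.30). The order at the top was that of Nfkbia, DOXO replicate 5 and then DOXO replicate 1. The covariate fit gave 0.81 ± 0.16 for DOXO against sham, and the fit without it 0.31 ± 0.49.

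Dusp1 encodes a phosphatase that switches off p38 and JNK kinases. Sham signals were 7.65, 9.82, 9.19 and 6.70 and FA-sham signals 7.10, 6.93, 6.96 and 8.21. The DOXO range was 6.86 to 10.89 (median 7.34) and the FA-DOXO range 6.97 to 8.86 (median 7.07). The median of the sham mice, 8.42, was the highest of the 4 groups, and the groups overlapped. DOXO exceeded sham by 0.54 ± 0.20 with the covariate and differed from it by -0.22 ± 0.75 without. Tsc22d3 (GILZ), an anti-inflammatory protein much used as a readout of the receptor, was at 6.63, 8.26, 7.95 and 6.65 in the sham and 6.80, 6.37, 6.62 and 7.35 in the FA-sham mice. It spanned 6.63 to 8.21 (median 6.90) in the DOXO and 6.51 to 7.73 (median 6.72) in the FA-DOXO mice. Sham replicate 2 had its highest signal, and its difference of DOXO from sham, 0.24 ± 0.14, was the smallest of the 10 with the covariate and turned to -0.14 ± 0.39 without it.

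Of the transcription factors, Klf9 is a zinc finger regulator of metabolism and proliferation, Zbtb16 (PLZF) a repressor induced by the receptor in many tissues, and Per1 a core repressor of the clock with its own response to the hormone. Klf9 was at 7.40, 9.34, 9.29 and 6.53 in the sham and 6.58, 6.62, 6.33 and 7.76 in the FA-sham mice. Its DOXO signals ran from 6.43 to 10.59 (median 7.11) and its FA-DOXO signals from 6.61 to 8.73 (median 6.76). Sham replicates 2 and 3 stood above all but 1 DOXO mouse, and the DOXO difference was 0.44 ± 0.19 with the covariate but -0.34 ± 0.76 without it. Zbtb16 gave 6.95, 9.50, 8.82 and 7.05 in the sham and 7.20, 7.13, 7.22 and 7.36 in the FA-sham mice. Across the DOXO mice it spanned 7.28 to 11.04 (median 7.37) and across the FA-DOXO mice 7.22 to 9.06 (median 7.36). A single DOXO mouse, replicate 5, exceeded the highest sham mouse, and the DOXO difference was 0.74 ± 0.33 with the covariate and 0.13 ± 0.66 without. Per1 was at 6.12, 7.15, 7.01 and 6.53 in the sham and 6.51, 6.51, 6.61 and 6.63 in the FA-sham mice. Its DOXO signals ran from 6.51 to 9.43 (median 6.57) and its FA-DOXO signals from 6.40 to 6.70 (median 6.55). DOXO replicate 5 was at 9.43 and no other mouse of any group was above 7.15. The DOXO difference of Per1 was 0.59 ± 0.36 with the covariate and 0.34 ± 0.42 without.

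**Figure D1:**
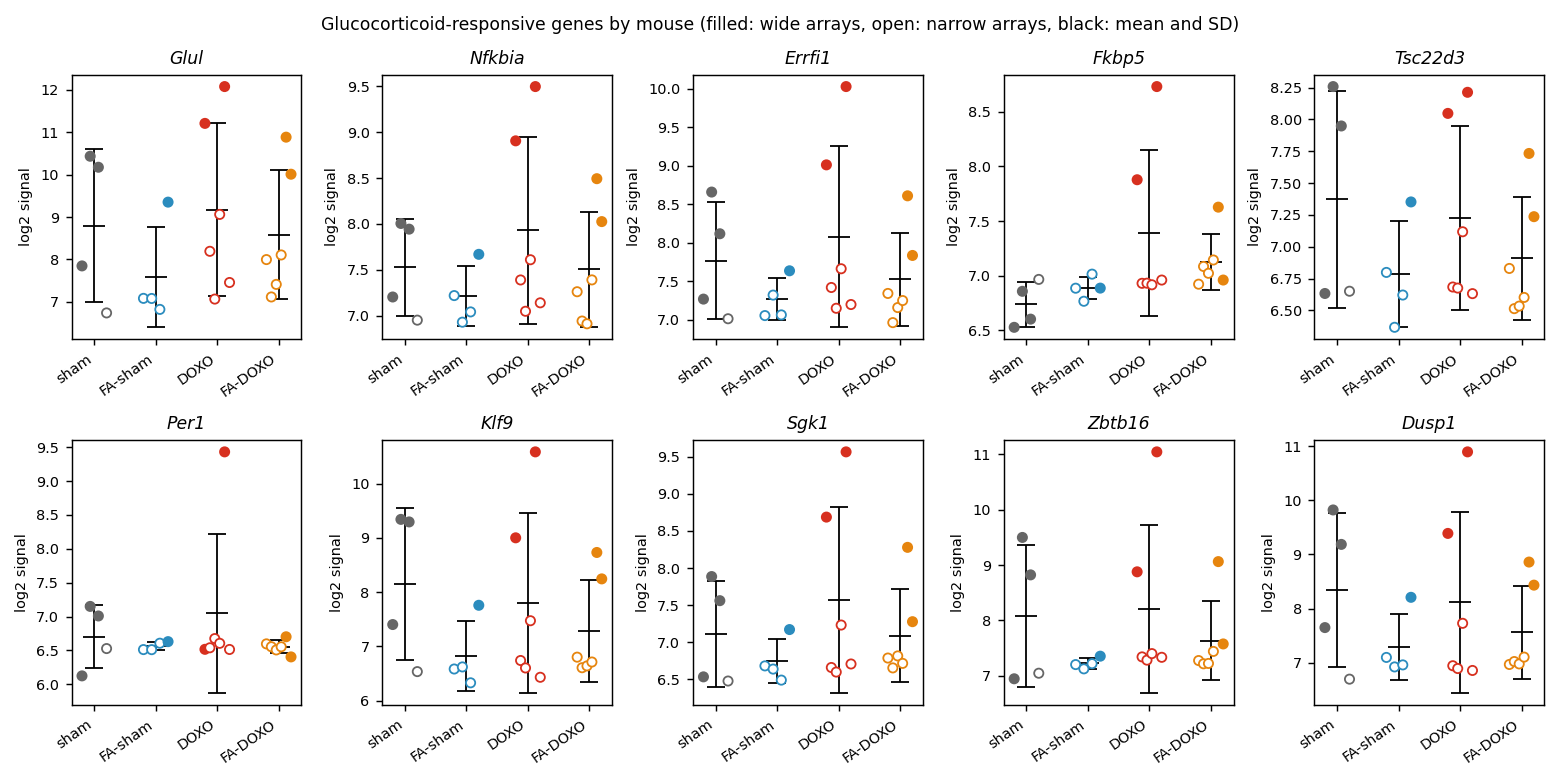
Log2 signal (y axis) of each glucocorticoid-responsive gene in each mouse by group (x axis), with wide arrays filled, narrow arrays open, and the black bars showing the group mean and SD (n = 4, 4, 6 and 6). The high DOXO points are the 2 wide arrays, replicates 1 and 5, and for Per1 only replicate 5, at 9.43.

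Whether doxorubicin moved these genes as a set was described by counts. In DOXO against sham 10 of 10 members were above 0, where 60.9% of all clusters were. Their median difference was 0.77, against a median of 0.04 over all clusters. At an adjusted p under 0.05 (limma, Benjamini-Hochberg over all clusters), 3 of the 10 were called, Glul, Nfkbia and Errfi1, where 0.135% of all clusters were called in that direction. Their adjusted p values were 0.0115, 0.0263 and 0.0482 (limma), and Sgk1, at 0.0501, was not called. Without the covariate 7 of 10 were above 0, the median was 0.33 and 0 were called. In no member did all DOXO mice exceed all sham mice (0 of 10, against 0.213% of all clusters), and the same held for FA-DOXO against FA-sham (0 of 10, against 0.371%).

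**Figure D2:**
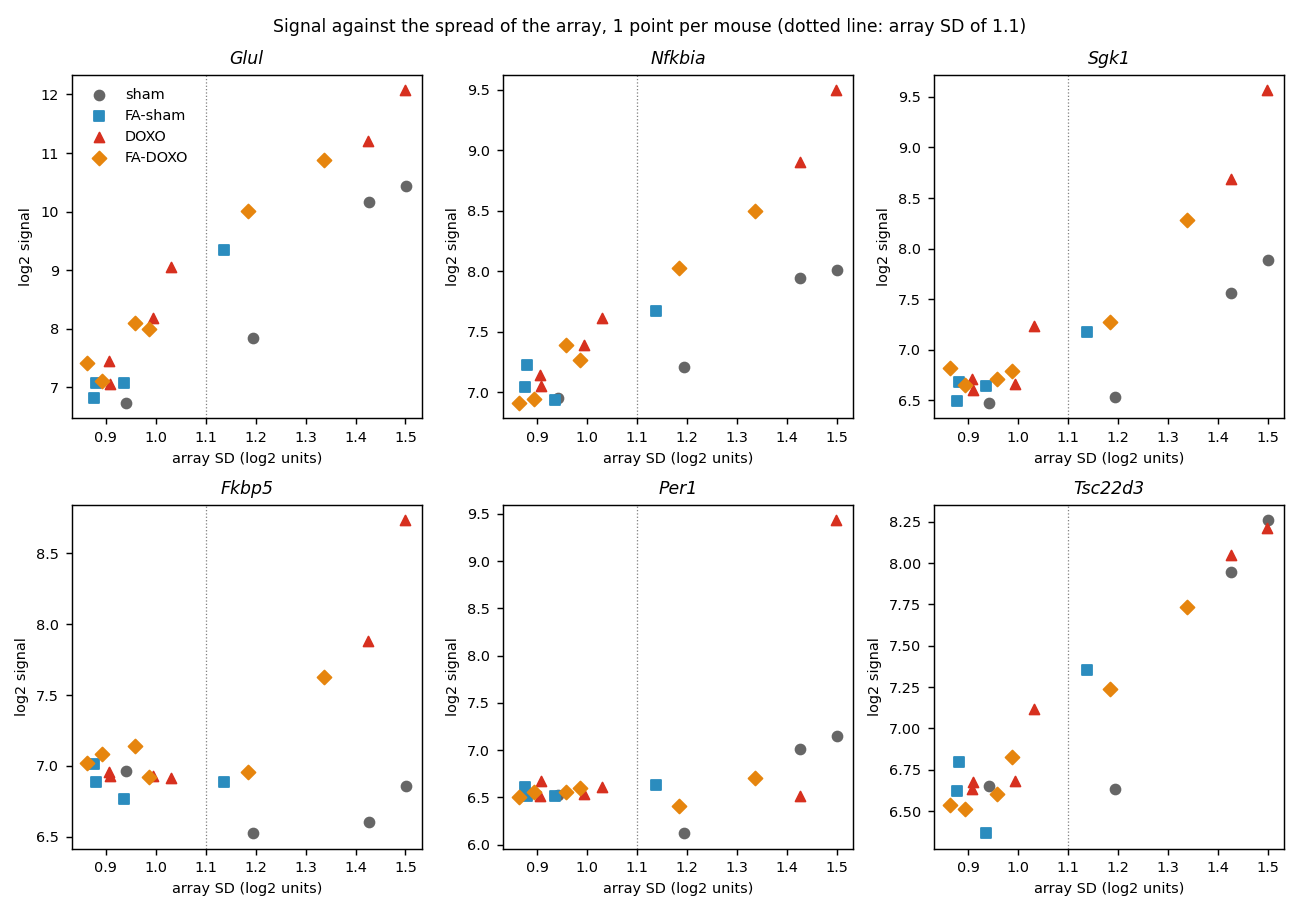
Log2 signal (y axis) against array SD (x axis, log2 units) for 6 of the genes, 1 point per mouse, with the dotted line at 1.1. At an SD near 1.43 and 1.50 the DOXO points of Glul, Nfkbia, Sgk1 and Fkbp5 lie above the sham points, while those of Tsc22d3 lie beside them.

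Arrays with nearly the same SD allow a direct look, without a fit and without a test, at pairs chosen after the values were seen. DOXO replicate 1 and sham replicate 3 both had an SD of 1.43, and DOXO replicate 5 and sham replicate 2 both 1.50. In the first pair Fkbp5 was higher in the DOXO mouse by 1.28, Sgk1 by 1.13, Glul by 1.03, Nfkbia by 0.96 and Errfi1 by 0.89, and in the second pair the same 5 genes by 1.87, 1.68, 1.64, 1.49 and 1.37. The median over all clusters was 0.04 in the first pair and 0.06 in the second. The other 5 genes behaved otherwise. Between DOXO replicate 1 and sham replicate 3 they differed by 0.20 (Dusp1), 0.10 (Tsc22d3), 0.06 (Zbtb16), -0.29 (Klf9) and -0.49 (Per1). Between DOXO replicate 5 and sham replicate 2, Per1 differed by 2.28, Zbtb16 by 1.54, Klf9 by 1.25 and Dusp1 by 1.07, and Tsc22d3 by -0.04. So Glul, Nfkbia, Errfi1, Fkbp5 and Sgk1 were high in both wide DOXO mice, whereas Per1, Klf9, Zbtb16 and Dusp1 were high mainly in 1 of them.

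That mouse, DOXO replicate 5, had the highest signal of all 20 mice for 9 of the 10 genes. This was not particular to the members. Btg2 (11.17, next highest 9.19 in DOXO replicate 1), Trim63 (10.84) and Hsd11b1 (9.56), described below, also peaked in it. Mt2 and S100a8 peaked in DOXO replicate 1, and Nr1d1 and Dbp in sham replicate 2. Without DOXO replicate 5 the median of the members in DOXO against sham was 0.43 and 0 were called. Glul was then at 1.42, Sgk1 at 0.74, Nfkbia at 0.71, Errfi1 at 0.59 and Fkbp5 at 0.55, and Per1 at -0.04. Without both wide DOXO arrays, a choice made after the data were seen, the median was 0.32. Leaving out sham replicate 4, the only narrow sham array, moved the values the other way, to a median of 0.98 with 5 members called and 960 clusters in place of 59. The count of called members was also 1 without sham replicate 1, sham replicate 3 or DOXO replicate 1 (10, 4 and 6 clusters called). It was 0 without sham replicate 2 (1 cluster called). It was 2 without FA-sham replicate 1, 2 or 3, without DOXO replicate 2, 3, 4 or 6, or without any single FA-DOXO mouse. Within the wide arrays alone (2 DOXO, 3 sham) the differences ran from 0.52 (Tsc22d3) to 2.16 (Glul). The sham arrays had SDs of 1.19, 1.50 and 1.43 and the DOXO arrays 1.43 and 1.50, so array SDs were not matched. Within the narrow arrays (4 DOXO, 1 sham) the differences ran from -0.03 (Fkbp5) to 1.20 (Glul).

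**Figure D3:**
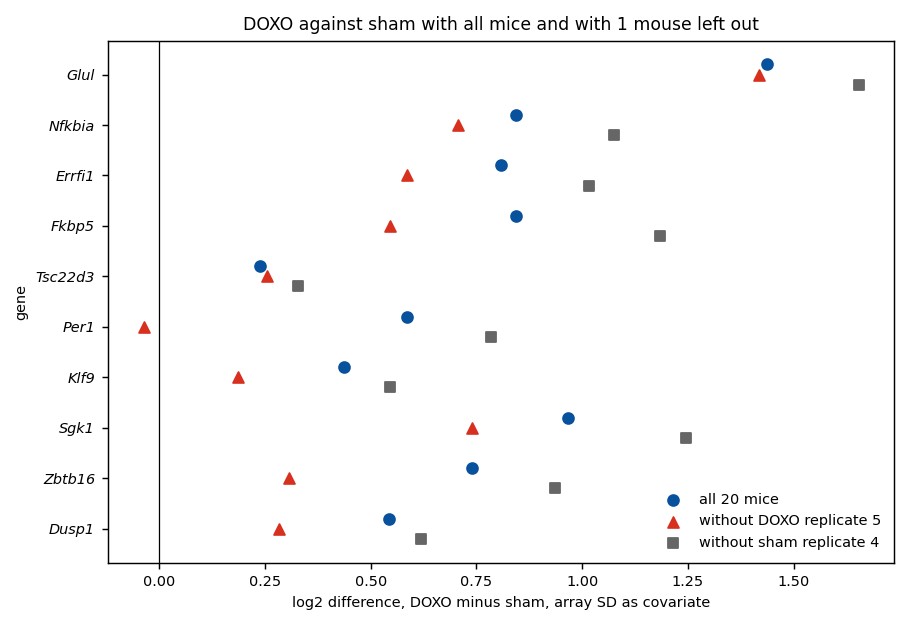
Difference of DOXO from sham in log2 signal (x axis, array SD as covariate) for each gene (y axis) with all 20 mice, without DOXO replicate 5 and without sham replicate 4. Glul stays near 1.4 without DOXO replicate 5, and Per1 falls to -0.04.

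The neutrophil markers were measured beside the members. In DOXO against sham 8 of 8 were above 0, where 60.9% of all clusters were, with a median of 0.62. By limma 0 of them were called, and 6 had an unadjusted p under 0.05, where 12.7% of all clusters did. Their mean signal ran from 5.53 to 6.37 in the sham and 6.16 to 6.43 in the FA-sham mice. It ran from 6.39 to 6.93 in the DOXO and 6.28 to 6.70 in the FA-DOXO mice. These are low signals, close to or below the array medians of 6.23 to 6.66. On wide arrays the mean ran from 5.53 to 6.93 and on narrow ones from 6.37 to 6.70. The part of these markers in the members' differences was not tested. S100a8, an abundant neutrophil protein, was higher by 1.04 ± 0.22 with doxorubicin over both diets, with an adjusted p of 0.0659 (limma). The other marker lists, also with 0 called and with 0 to 2 markers each at an unadjusted p under 0.05, had medians in DOXO against sham of -0.06 for cardiomyocytes, -0.10 for endothelial cells, 0.03 for fibroblasts, 0.00 for macrophages, -0.08 for smooth muscle and pericytes, -0.05 for T and NK cells and 0.09 for adipocytes. Without the covariate the cardiomyocyte median was -1.03.

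Under folic acid the size of the doxorubicin difference of these genes depended on the fit. In FA-DOXO against FA-sham the members had a median of 0.03 with the covariate, against -0.02 over all clusters. Of the 10, 6 were above 0, where 43.9% of all clusters were. None was called by limma, where 0.023% of clusters were called in that direction. At an unadjusted p under 0.05 there were 0 members as well, where 4.92% of clusters passed. Without the covariate the median was 0.28 with 9 of 10 above 0, beside the 0.33 of DOXO against sham in the same fit, and the wide arrays alone (2 against 1) gave a median of 0.59. With the covariate Glul had the largest difference, 0.39 ± 0.20, and its second cluster 0.06 ± 0.18, and without it they were at 1.00 ± 1.02 and 0.65 ± 0.98. The others ran from -0.18 ± 0.20 (Dusp1) to 0.13 ± 0.22 (Fkbp5) with the covariate. In FA-DOXO replicate 6 and FA-sham replicate 4, wide arrays with SDs of 1.18 and 1.14, Glul differed by 0.66, Klf9 by 0.49 and Nfkbia by 0.36, and the other 7 by -0.23 (Per1) to 0.22 (Dusp1), against a median of -0.07 over all clusters. The set had no stable direction with single mice left out: its median ran from -0.05 (without FA-sham replicate 4) to 0.10 (without FA-sham replicate 1). The average over both diets contains the difference that the choice of the members used, so it too is a description. In it 10 of 10 members were above 0, where 56.0% of all clusters were, with a median of 0.39 (0.26 without DOXO replicate 5). Of them 1 was called, Glul at 0.91 ± 0.14 (second cluster 0.68 ± 0.12), where 0.19% of clusters were called in that direction. Sgk1 was at 0.51 ± 0.13, Fkbp5 at 0.49 ± 0.15, Nfkbia at 0.44 ± 0.09 and Errfi1 at 0.39 ± 0.11. Without sham replicate 4 the count of called members was 5 (327 clusters called). Without sham replicate 2 (4 clusters called) or FA-sham replicate 2 (8 clusters called) it was 0.

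**Figure D4:**
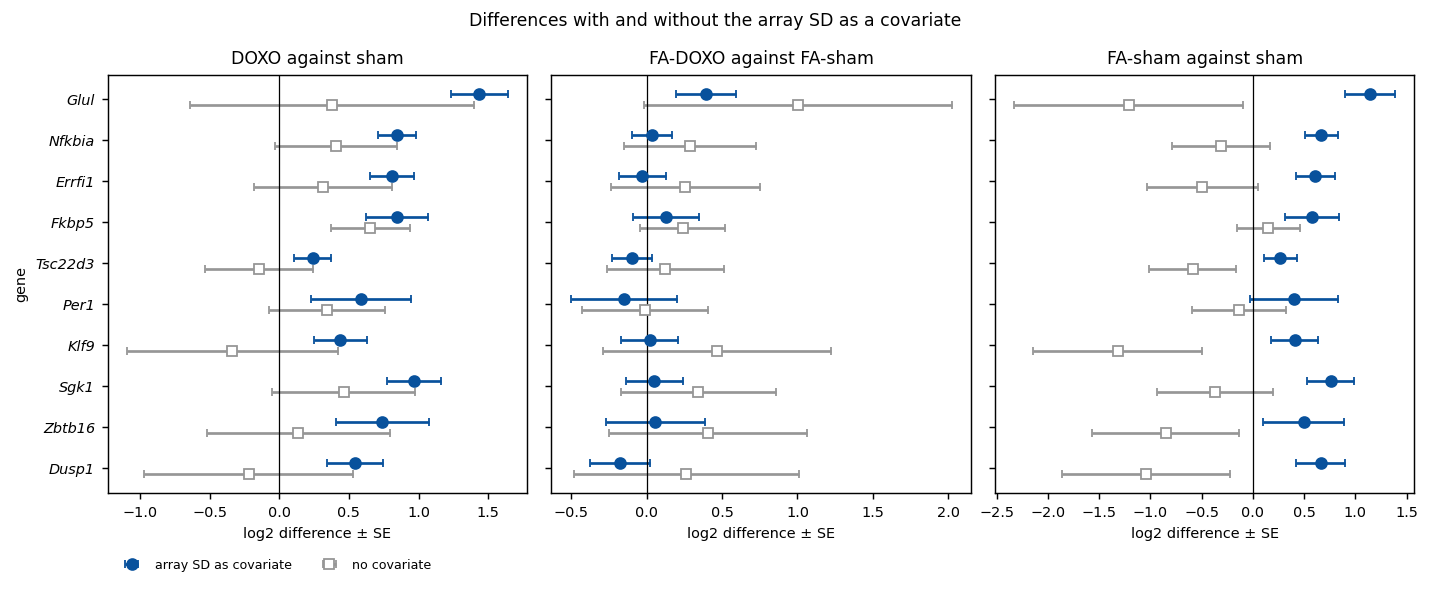
Log2 difference ± SE (x axis) of each gene (y axis) in 3 comparisons, with the array SD as a covariate (filled) and without it (open). With the covariate all 10 genes lie above 0 in DOXO against sham and in FA-sham against sham, and in FA-sham against sham 9 of the 10 lie below 0 without it.

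Folic acid itself was compared in both arms, which the choice of the members did not use. These comparisons share the sham or the DOXO arrays with DOXO against sham, which it did use. A choice made with that difference known can by itself raise FA-sham against sham and lower FA-DOXO against DOXO. Nothing is therefore read from the direction of the members in either. In FA-DOXO against DOXO the median of the members was -0.14 with 1 of 10 above 0, against 0.01 over all clusters, and -0.50 with 0 of 10 above 0 without the covariate. This direction rested on 1 mouse in the covariate fit: without DOXO replicate 5 the median was 0.0029, and without both wide DOXO arrays 0.027. None was called (limma, 0 of 10; 0 of all clusters, 0%), and 0 of 10 had an unadjusted p under 0.05, where 5.86% of clusters did. The differences, with 95% intervals, were 0.10 (-0.28 to 0.48) for Glul, -0.14 (-0.39 to 0.11) for Nfkbia, -0.23 (-0.52 to 0.07) for Errfi1, -0.16 (-0.51 to 0.20) for Sgk1 and -0.14 (-0.55 to 0.27) for Fkbp5. The lowest adjusted p of a member was 0.846 (limma, Errfi1). Among wide arrays alone (2 against 2) every member was lower in the FA-DOXO mice, by -0.65 (Tsc22d3) to -1.64 (Zbtb16). These arrays were not matched in array SD, at 1.43 and 1.50 for DOXO and 1.34 and 1.18 for FA-DOXO. The part of the array SD in these differences was not tested. Among narrow arrays (4 against 4) the differences lay between -0.29 (Glul) and 0.11 (Fkbp5).

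In FA-sham against sham the median of the members was 0.59 with the covariate, 10 of 10 above 0, and -0.54 without it, 1 of 10 above 0, so the direction depends on the array SD. Over all clusters the median was 0.07 with the covariate, with 67.8% above 0. Of the neutrophil markers 8 of 8 were above 0 here too, with a median of 0.46 (0 called by limma, 4 at an unadjusted p under 0.05), and their part was not tested. None of the members was called (limma, 0 of 10, and 0 of all clusters, 0%), while 6 of 10 had an unadjusted p under 0.05, where 7.93% of clusters did. The sham arrays are shared with the comparison known when the members were chosen, so these counts are no independent evidence. Glul was at 1.15 ± 0.24 (limma, adjusted p = 0.453), Sgk1 at 0.76 ± 0.23, Nfkbia at 0.67 ± 0.16 and Errfi1 at 0.61 ± 0.19. Within the wide arrays (1 FA-sham, 3 sham) Glul differed by -0.13 and within the narrow ones (3 FA-sham, 1 sham) by 0.26. Without sham replicate 4, 2 members were called, Glul at 1.41 and Nfkbia at 0.95, among 56 of all clusters.

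The interaction, the doxorubicin difference under folic acid minus that under placebo, contains the difference that the choice of the members used. It was below 0 for 10 of 10 members with a median of -0.73 with the covariate, against -0.05 over all clusters, and had a median of 0.11 with 5 of 10 above 0 without it. None was called (limma, 0 of 10; 0 of all clusters, 0%), and 6 of 10 had an unadjusted p under 0.05, where 8.63% of clusters did. The values were -1.04 ± 0.29 for Glul, -0.91 ± 0.27 for Sgk1, -0.84 ± 0.23 for Errfi1 and -0.81 ± 0.19 for Nfkbia, with a lowest adjusted p of 0.535 (limma). Without DOXO replicate 5 the median was -0.39, and within the narrow arrays alone -0.18. Without sham replicate 4 it was -1.01 and 1 member was called, Nfkbia at -1.06, among 4 of all clusters. The neutrophil markers had a median of -0.50 in the interaction, with 1 of 8 above 0.

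The rest of the pathway was followed in fixed lists, averaged over both diets. Over all clusters 0.19% were called higher there, 8.54% had an unadjusted p under 0.05 (limma) and 56.0% were above 0. These shares stand beside the counts of every list below. Of 31 other known induced targets 4 rose and 0 fell, with a median of 0.21 over the list against 0.01 over all clusters and 26 of 31 above 0. The 4 were 2 metallothioneins, which bind zinc and copper, and 2 lipocalins. Mt2 was at 9.36, 9.10, 9.37 and 7.22 in the sham and 7.00, 7.39, 7.63 and 8.57 in the FA-sham mice, and its signal ran from 9.80 to 13.25 (median 11.37) in the DOXO and from 8.64 to 12.73 (median 11.28) in the FA-DOXO mice. Every DOXO mouse exceeded every sham mouse, and every FA-DOXO mouse every FA-sham mouse. The difference was 3.22 ± 0.32 (limma, adjusted p = 9.39e-05), a 9.29-fold higher signal. Mt1 rose by 1.06 ± 0.18 (limma, adjusted p = 0.0221), Ptgds, a prostaglandin D synthase, by 1.19 ± 0.21 (0.0273) and Lcn2, an iron-carrier binding protein of injured tissue and neutrophils, by 2.05 ± 0.39 (0.0360). Mt2 and Lcn2 were picked by the study from these arrays and are no independent evidence. The list was chosen with earlier results of these data known, so Mt1, Ptgds and the counts of the list are none either. The calls of Mt1, Lcn2 and Ptgds were lost without the covariate and when single mice, among them sham replicate 2 or FA-DOXO replicate 5, were left out, and that of Mt2 without the covariate. Other classic targets did not pass the test: Ddit4, an inhibitor of mTORC1, was at 0.48 ± 0.12 (adjusted p = 0.152), Trim63, the muscle ubiquitin ligase MuRF1, at 0.41 ± 0.12 (0.207) and Klf15 at 0.09 ± 0.11 (0.892), all by limma.

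Of 14 genes of the receptor and its chaperones, 0 passed the test (limma), and 2 had an unadjusted p under 0.05. The receptor gene Nr3c1 was at -0.17 ± 0.12 and the mineralocorticoid receptor gene Nr3c2 at -0.16 ± 0.12. Hsd11b1, the enzyme that regenerates active hormone inside cells, was at 0.82 ± 0.20 (limma, adjusted p = 0.132). Fkbp4, the immunophilin with the opposite effect to Fkbp5 on the receptor, was at -0.42 ± 0.13 (0.298), and Hsp90aa1 at 0.20 ± 0.10 (0.584). None of 16 clock genes passed, and 3 had an unadjusted p under 0.05 (limma). Dbp, a clock output factor, was at -0.62 ± 0.21 and Arntl, the activator of the clock, at 0.27 ± 0.09 (both adjusted p = 0.330, limma). Nr1d1, at -0.25 ± 0.23, and Per2, at -0.04 ± 0.13, were not among the 3.

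The signals that also reach some members were measured in the same way. Of 17 immediate early genes, which mitogens and stress induce within minutes, 0 passed (limma; 4 at an unadjusted p under 0.05), with 16 above 0 and a median of 0.14. Btg2 was at 0.57 ± 0.21 and Ier3 at 0.31 ± 0.10. Of 9 other feedback genes of NF-kappaB 0 passed (2 at that unadjusted p), with a median of 0.10, and of 8 ErbB receptors and ligands 0 (1), with a median of 0.01. Of 18 inflammatory genes that glucocorticoids repress, such as Il6 and Ccl2, 0 passed (1), with a median of 0.06 and 12 above 0, and of 4 targets in liver 0 (0), with a median of 0.08. Of 15 relatives of the members (other genes of their families) 0 passed (1), and the median was -0.01. In DOXO against sham alone, 17 of 17 immediate early genes were above 0, with a median of 0.32. Of them 7 had an unadjusted p under 0.05 (limma), where 12.7% of all clusters did, and 0 were called. All 9 NF-kappaB feedback genes were above 0, where 60.9% of all clusters were (median 0.24, 2 at that p). The ErbB genes had a median of -0.01 and the repressed inflammatory genes 0.09. The part of these signals in the members' differences was not tested.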

How the data were processed

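Left ventricles of 20 mice were profiled on Affymetrix arrays, and the authors deposited log2 signals per transcript cluster, made with R 2.14.2 per the submitters' processing notes. Background correction, normalization and probe summary were not stated in what was read here, and array SDs from 0.86 to 1.50 remained, so the spread of an array enters each comparison. Groups came from the sample labels, doses and days from the study's methods. Gene symbols came from the platform annotation: 21640 clusters had 1 symbol, 1321 several and 11799 were unnamed. Depth does not apply to arrays; their number limits the precision.

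From these log2 signals, 1 mean per group plus the array SD was fitted to all 34760 clusters with limma 3.58.1 in R 4.3.3 (no filter, two-sided moderated tests, Benjamini-Hochberg over all clusters, called at an adjusted p under 0.05). The fit was tested on simulated data. The members and lists were chosen with earlier results of these data known. Named genes were all members, up to 6 genes with the smallest p of each pathway list, of which the text gives the leading ones, and 10 regulators and targets always given. S100a8 was named after its values were seen. Lists covered the receptor and chaperones, other induced targets, repressed inflammatory genes, liver targets, clock, immediate early, NF-kappaB feedback and ErbB genes, relatives of the members and 8 sets of cell type markers. Where a gene had several clusters, the brightest on average stood for it. Promoters came from RefSeq (GRCm38.p6), whose coordinates are not those of the array's annotation, and motifs were searched on both strands. Alternatives were no covariate, wide and narrow arrays as a block or alone, quantile normalization, median centring, a filter on low signals, clusters with 1 symbol, a trended and robust fit, array weights, only the compared groups, the mean of both Glul clusters, a block for the replicate number, and leaving out each mouse. Leaving out both wide DOXO arrays and a separate array SD slope for each group were chosen after seeing the data. Raw scans were not used here.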

Additional observations from a re-analysis of the deposited data

Results flagged for a closer look

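In 6 of 44 groups of values (11 clusters in 4 groups) 1 mouse stood far above the rest of its group by Dixon's criterion. Chance gives about 1 in 20 among independent groups. These 44 share the same arrays and include both Glul clusters, so their count cannot be compared with that rate. FA-sham replicate 4, the only wide array of its group, was high for Glul (9.35, next highest 7.08), for the second Glul cluster (9.34, next 7.30) and for Dusp1 (8.21, next 7.10). FA-DOXO replicate 5, a wide array, was high for Fkbp5 (7.63, next 7.14) and for Zbtb16 (9.06, next 7.58). DOXO replicate 5, the array with the largest SD of its group, was high for Per1 (9.43, next 6.68). The part of the array SD in these values was not tested apart from the covariate fit.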

How the results depend on the processing

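The count of members called in DOXO against sham, 3, was 0 without the covariate, with a block for wide and narrow arrays, with quantile normalization, with array weights, with only the compared groups, with narrow or with wide arrays alone, with a slope for each group and without both wide DOXO arrays, and ran from 0 to 5 when single mice were left out. Over both diets the count, 1, was 0 without the covariate, with a block for wide and narrow arrays, with quantile normalization, with narrow or wide arrays alone, with a slope for each group and without both wide DOXO arrays, and ran from 0 to 5 when single mice were left out. The counts of 0 ran from 0 to 2 in FA-sham against sham and from 0 to 1 in the interaction when single mice were left out, and stayed at 0 in FA-DOXO against FA-sham and FA-DOXO against DOXO in all of these fits. The cause of these moves was not tested.

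Replicate numbers did not pair the mice (correlations of same-numbered deviations ran from -0.86 to 0.84). With the replicate number as a block, 1 member was called in DOXO against sham, and Lcn2 and Ptgds were not called over both diets; the block changed no other call.

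Directions turned in several comparisons. Without the covariate they turned in DOXO against sham for Tsc22d3 (-0.14), Dusp1 (-0.22) and Klf9 (-0.34), over both diets for Tsc22d3 (-0.01), in FA-DOXO against FA-sham for Errfi1 (0.26), Tsc22d3 (0.12) and Dusp1 (0.26), in FA-sham against sham for all members but Fkbp5, and in the interaction for Tsc22d3 (0.27), Zbtb16 (0.27), Dusp1 (0.48), Klf9 (0.80) and Glul (0.62). With single mice left out, Per1 was at -0.037 in DOXO against sham and -0.042 over both diets without DOXO replicate 5, and Tsc22d3 at -0.023 over both diets without sham replicate 1. In FA-DOXO against FA-sham the ranges over single mice left out crossed 0 for several members. They were -0.035 to 0.12 (Nfkbia), -0.13 to 0.016 (Errfi1), -0.056 to 0.083 (Klf9) and -0.036 to 0.12 (Sgk1). For Zbtb16 the range was -0.19 to 0.19 and for the second Glul cluster -0.026 to 0.17. For Glul in FA-DOXO against DOXO the value was -0.59 without the covariate and also -0.59 with a block for wide and narrow arrays, -0.42 with quantile normalization, -0.29 with narrow and -1.19 with wide arrays alone, and -0.0053 without DOXO replicate 3 (0.24 at most with other single mice left out). Without both wide DOXO arrays Nfkbia was at 0.0021 and Sgk1 at 0.071 in that comparison. In FA-sham against sham, values without the covariate included -1.21 (Glul), -0.31 (Nfkbia), -0.50 (Errfi1) and -0.37 (Sgk1); with quantile normalization -0.67 (Glul), -0.080 (Errfi1) and -0.25 (Sgk1); with wide arrays alone -0.13 (Glul), -0.049 (Nfkbia), -0.38 (Errfi1) and -0.16 (Sgk1). The interaction of Glul was 0.25 with quantile normalization.

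Over both diets, with narrow arrays alone, values were 0.10 (Nr3c1), 0.037 (Nr3c2), 0.077 (Fkbp4), -0.021 (Klf15), 0.0088 (Nr1d1), -0.0025 (Hsp90aa1) and -0.015 (Arntl), with a slope for each group 0.057 (Nr3c2) and 0.041 (Nr1d1), with array weights -0.0077 (Klf15) and without both wide DOXO arrays -0.030 (Klf15). With single mice left out Klf15 ran from -0.017 (DOXO replicate 5) to 0.15 and Per2 from -0.14 to 0.035 (DOXO replicate 1; 0.0055 without sham replicate 2).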
